A study of Mus musculus with 4 samples.

Results

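The 10 genes described here encode the enzymes and the accessory protein that make prostaglandins and leukotrienes from arachidonic acid. They were chosen by name from the 54532 genes of a count table covering 4 RNA-seq libraries of peritoneal macrophages from wild-type mice, and all 10 were found in it. Per the methods of the study, peritoneal macrophages were elicited with thioglycollate in BALB/c mice. One culture was kept in normal medium (0% 4T1) with DMSO, the vehicle. Another was kept in normal medium with 10 µM CH223191, an antagonist of the aryl hydrocarbon receptor (AHR). The remaining cultures received 30% 4T1-CM, medium in which 4T1 mouse mammary carcinoma cells had grown, one with DMSO and one with 10 µM CH223191. The sources used here state no treatment time for these libraries, nor the number of mice behind each culture. With a single culture sequenced per condition (1 library each), there is no replicate check, and the spread from culture to culture cannot be estimated.

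Eicosanoid synthesis begins when a phospholipase releases arachidonic acid from membrane lipids. Cyclooxygenases convert it to prostaglandin H2, from which terminal synthases make the separate prostaglandins, among them prostaglandin E2 and prostaglandin D2. In the other branch 5-lipoxygenase, helped by its activating protein, makes leukotriene A4, which is then turned into leukotriene B4, a chemoattractant, or into leukotriene C4, the first of the cysteinyl leukotrienes. Macrophages are a known source of both kinds of lipid, and Ptgs2 and Ptges are known to be inducible in them.

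Library totals lay between 15535405 and 17557127 counts. Levels are given as CPM, counts per 1000000 counts of the TMM-scaled library, and between genes only as CPM per kilobase of the deposited gene length. Where no read was found, the level could still reach 3 reads, or 0.171 to 0.189 CPM. Each log2 ratio compares 2 libraries, and its 95% interval (exact, Clopper-Pearson) reflects how the reads of the gene divide between them. It covers counting error only. All 8 macrophage markers were present, with summed levels of 14300 and 18500 CPM in normal medium and 40650 and 43450 in 4T1-CM. Lyz2 was the highest of them, at up to 577870 reads in a library, while the whole list summed to at most 711626 reads. Of the 8 mast cell markers, 4 were at 0 in every library, Kit and Fcer1a among them, and the list summed to at most 3 reads. The 5 eosinophil markers summed to 16.25 and 14.4 CPM in normal medium and 6.17 and 5.97 in 4T1-CM, mostly Siglecf, with Epx and Prg2 at 0 throughout. Markers of neutrophils (9 genes) summed to 67.6 and 74.6 CPM in normal medium and 242 and 181 in 4T1-CM, with Mmp8 the highest and Ly6g, S100a9 and Retnlg at 0. Those of fibroblasts (6 genes) summed to 63.0 and 30.1 CPM and to 149 and 127, with Col1a2 the highest. The platelet list (5 genes) went from 68.7 and 64.3 to 37.2 and 33.6 CPM, mostly Itgb3, and the B cell list (4 genes) from 20.1 and 34.2 to 7.66 and 4.74, mostly Ighm. The lists of mesothelial, epithelial and dendritic cells each stayed at or below 2.40 CPM in every library, and the 3 T cell markers were at 0. Lists that moved with the medium did so together with the genes below, and their part in those results was not tested. Cyp1b1, a target of AHR, had 65 reads (DMSO) and 19 (CH223191) in normal medium, against 361 and 171 in 4T1-CM. Of the other AHR genes listed, Nqo1 had log2 ratios of CH223191 to DMSO of -0.62 (normal medium) and -0.97 (4T1-CM), Tiparp of 0.14 and -0.09, Ahrr of -0.36 and -0.01, and Ahr itself of -0.50 and 0.26. In such bulk RNA, fewer cells of a type and less RNA per cell cannot be told apart.

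The promoters of Ptgs2 and Ptges are shown because these genes had the largest ratios of 4T1-CM to normal medium among the 10. Each window is the 250 bases before the RefSeq start of the gene in GRCm38.p6, written on the strand of the gene. The Ptgs2 window is chr1:150099781-150100030 on the plus strand, and the Ptges window is chr2:30903298-30903547 on the minus strand. The Ptges window lies within the deposited span of that gene, chr2:30889471-30929863. Capitals mark the letters GCGTG, the core of the element that AHR binds.
Ptgs2: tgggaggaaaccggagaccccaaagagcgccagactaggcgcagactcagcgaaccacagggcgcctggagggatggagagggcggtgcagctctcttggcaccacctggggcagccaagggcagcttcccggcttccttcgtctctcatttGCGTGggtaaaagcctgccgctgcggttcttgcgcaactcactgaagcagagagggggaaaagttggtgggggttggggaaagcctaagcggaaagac
Ptges: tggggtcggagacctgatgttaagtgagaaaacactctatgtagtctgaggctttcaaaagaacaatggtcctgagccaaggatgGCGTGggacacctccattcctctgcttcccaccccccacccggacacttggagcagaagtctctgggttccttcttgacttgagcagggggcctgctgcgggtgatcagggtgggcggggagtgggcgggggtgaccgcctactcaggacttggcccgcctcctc
Each of these windows held 1 match, 98 bases upstream of the start for Ptgs2 and 165 bases upstream for Ptges. Of the 8 genes with a window in the table, Pla2g4a held the only other match, at 235 bases upstream on the opposite strand. A further window of Pla2g4a, chr1:149922440-149922689, lies inside the gene and held no match. GCGTG, searched on both strands, occurs in 28.2% of all 32851 promoter windows of this length, so a match in 3 of 8 genes is a description only. The letters TTCNNNGAA (a STAT5 site), TGANTCA (an AP-1 site) and TGACGTCA (the cyclic AMP response element) and the NF-kB consensus were not found in any window of the 8 genes, and occur in 7.02%, 6.75%, 1.55% and 7.25% of all windows. In the deposited coordinates no other gene overlaps Ptgs2, whose window overlaps an exon of the antisense gene Ptgs2os over 183 bases. A processed pseudogene with at most 2 reads in a library lies within Ptges.

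The first question was how the genes differed between 4T1-CM and normal medium. Of the 10 genes, 9 passed the filter on low counts and had a ratio. With DMSO, 5 of these 9 were at least 2-fold higher in 4T1-CM, against 12.2% of the 13715 genes kept, and 1 was at least 2-fold lower, against 6.11%. With CH223191, 4 were at least 2-fold higher, against 12%, and 1 was lower, against 7.86%. The shares of all genes past 2-fold, here and below, also count genes with 3 reads or fewer in a library. The listed genes got no fold there. With 10 reads required in all 4 libraries, 11765 genes were left. Of these, 851 were higher and 499 lower with DMSO, and 869 and 677 with CH223191. Among the 10 genes, that filter gave 4 higher and 1 lower in each comparison. The comparison with DMSO and that with CH223191 share no library. Ptgs1, Ptgs2, Ptges and Alox5 were at least 2-fold higher in both (8.18% of genes), and Hpgds was at least 2-fold lower in both (3.38%). Genes were kept if at least 1 library had 10 reads, which 9 of the 10 passed. 8 of them had 10 reads in every library, Ltc4s had them in 3 libraries and Alox15 in none. The median log2 ratio of the 9 genes was 1.06 with DMSO, beside 0.01 over all genes, and 0.77 with CH223191, beside 0.02.

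Changes of 2-fold were more frequent among genes with few reads, in a split at 5 CPM chosen after the values were seen. Of the 4049 genes with a mean under 5 CPM, 26.7% were at least 2-fold higher in 4T1-CM with DMSO and 26.1% with CH223191, and 12.3% and 14.2% were lower. Of the 9666 genes at or above 5 CPM, 6.11% and 6.12% were higher and 3.52% and 5.21% lower. These shares, too, count genes with 3 reads or fewer in a library. Ptgs2 and Ltc4s belong to the former group and the 7 other genes kept, Ptges and Hpgds among them, to the latter. As an alternative that uses all 4 libraries, an additive quasi-likelihood model of edgeR was fitted with terms for medium and inhibitor. It has 1 residual degree of freedom and takes the response to 4T1-CM to be equal under DMSO and CH223191. Its residual mixes any difference between these responses with the spread between cultures, and the design cannot separate them. At an adjusted p under 0.05 that fit placed 16.4% of genes higher in 4T1-CM and 16.2% lower. Of the 10 genes, Pla2g4a, Ptgs1, Ptgs2, Ptges and Alox5 were higher and Hpgds was lower, and DESeq2 called 6 in either direction, against 18.5% of the 13183 genes to which it gave an adjusted p.

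**Figure D1:**
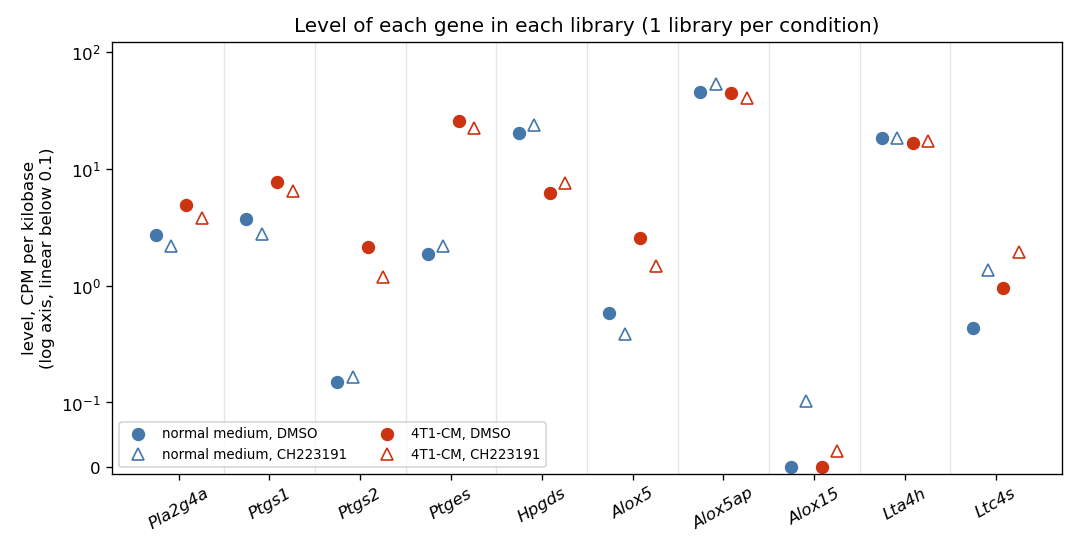
Level of the 10 genes in CPM per kilobase of gene length (log axis, linear below 0.1), with 1 point for each of the 4 libraries, blue for normal medium, red for 4T1-CM, filled for DMSO and open for CH223191. Both red points of Ptges lie far above the blue ones, those of Hpgds lie below them, and those of Lta4h lie beside them.

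Pla2g4a encodes cytosolic phospholipase A2, which frees arachidonic acid. It lies at chr1:149829618-149961290 on the minus strand (GRCm38). It had 274 reads (DMSO) and 223 (CH223191) in normal medium, against 545 and 390 in 4T1-CM. Both libraries with 4T1-CM were thus above both with normal medium, and within each medium the library with CH223191 was the lower. The log2 ratio of 4T1-CM to normal medium was 0.86 under DMSO (95% interval 0.64 to 1.07) and 0.77 under CH223191 (0.53 to 1.02), under 2-fold in each, and the adjusted p in the additive edgeR fit was 0.00191.

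The cyclooxygenases are encoded by Ptgs1, usually the constitutive gene, and Ptgs2, the inducible one. Ptgs1 lies at chr2:36230426-36252272 and Ptgs2 at chr1:150100031-150108227, both on the plus strand. Ptgs1 had 230, 172, 526 and 408 reads, listing normal medium before 4T1-CM and DMSO before CH223191, the order used from here on. Ptgs2 had 11, 12, 172 and 88 reads in that order. Each gene was higher in both libraries with 4T1-CM than in either with normal medium, and Ptgs2 was at 0.690 and 0.755 CPM in normal medium. The ratio for Ptgs1 was 2.08-fold with DMSO (log2 1.06, 95% interval 0.83 to 1.29) and 2.32-fold with CH223191 (1.21, 0.95 to 1.48). For Ptgs2 it was 13.7-fold with DMSO (log2 3.77, 2.96 to 4.86) and 6.94-fold with CH223191 (2.79, 1.97 to 3.85). The adjusted p for 4T1-CM in the additive edgeR fit was 0.000299 for Ptgs1 and 3e-05 for Ptgs2.

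The gene with the larger ratio, Ptgs2, was the less abundant cyclooxygenase in every library. Per kilobase, Ptgs2 made up 3.9% of the reads of both genes in normal medium with DMSO (95% interval 1.96 to 6.89) and 5.59% with CH223191 (2.91 to 9.59). In 4T1-CM it made up 21.7% with DMSO (18.84 to 24.8) and 15.46% with CH223191 (12.6 to 18.75). The intervals of the 2 media do not overlap. Those of DMSO and CH223191 overlap in normal medium and do not in 4T1-CM, where they end at 18.84 and 18.75. Ptgs1 was still 3.61 times as abundant per kilobase as Ptgs2 in 4T1-CM with DMSO.

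**Figure D2:**
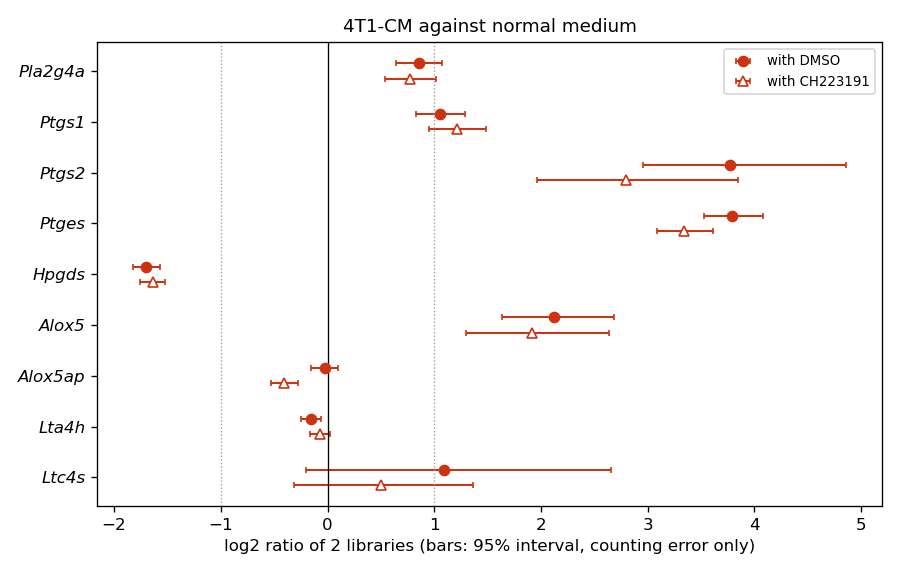
Log2 ratio of 4T1-CM to normal medium for the 9 genes with enough reads (horizontal axis), filled points with DMSO and open triangles with CH223191, bars giving the 95% interval of counting error and dotted lines 2-fold. Ptgs2 and Ptges lie between 2.79 and 3.79, Hpgds lies at -1.70 and -1.64, and Lta4h at -0.16 and -0.07.

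Of the terminal synthases, Ptges for prostaglandin E2 and Hpgds for prostaglandin D2 differed in opposite directions. Ptges2 and Ptges3, also synthases of prostaglandin E2 and named after their values were seen, were not higher in 4T1-CM. Their log2 ratios were -0.42 and -0.07 with DMSO, and -0.76 and -0.21 with CH223191. Ptges encodes the inducible microsomal synthase of prostaglandin E2. Its gene spans chr2:30889471-30929863 on the minus strand. It had 116, 137, 1770 and 1421 reads, and both libraries with 4T1-CM were far above both with normal medium. The ratio was 13.8-fold with DMSO (log2 3.79, 95% interval 3.52 to 4.08) and 10.1-fold with CH223191 (3.34, 3.09 to 3.61), with an adjusted p of 8.51e-08 in the additive edgeR fit, the lowest of the 9 genes. Hpgds, the hematopoietic synthase of prostaglandin D2, lies at chr6:65117293-65144908 on the minus strand and had 2073, 2398, 702 and 786 reads. It was 3.24-fold lower in 4T1-CM with DMSO (log2 -1.70, -1.82 to -1.57) and 3.12-fold lower with CH223191 (-1.64, -1.76 to -1.52), with an adjusted p of 4.43e-06. Hpgds is also a mast cell gene. The mast cell markers summed to 3 reads or fewer in each library and Hpgds had at least 702, and which cells gave the Hpgds reads was not tested. The processed pseudogene Gm17147, which lies within Hpgds on the other strand, had at most 25 reads, and 0.393% of the 50-base words of Hpgds occur in transcripts of other genes.

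The share of Ptges among the reads per kilobase of Ptges and Hpgds, a quantity chosen after the values were seen, was 8.38% (95% interval 6.99 to 9.94) in normal medium with DMSO and 8.54% (7.24 to 9.99) with CH223191. In 4T1-CM it was 80.5% (79.05 to 81.8) with DMSO and 74.7% (73.0 to 76.35) with CH223191. Hpgds was thus 10.9 times as abundant as Ptges in normal medium with DMSO, and Ptges was 4.12 times as abundant as Hpgds in 4T1-CM with DMSO. The share leaves out Ptges2 and Ptges3, and Ptges3 was at 26.8, 24.4, 25.5 and 21.05 CPM per kilobase in the 4 libraries. These are levels of mRNA, and no prostaglandin was measured in these samples.

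**Figure D3:**
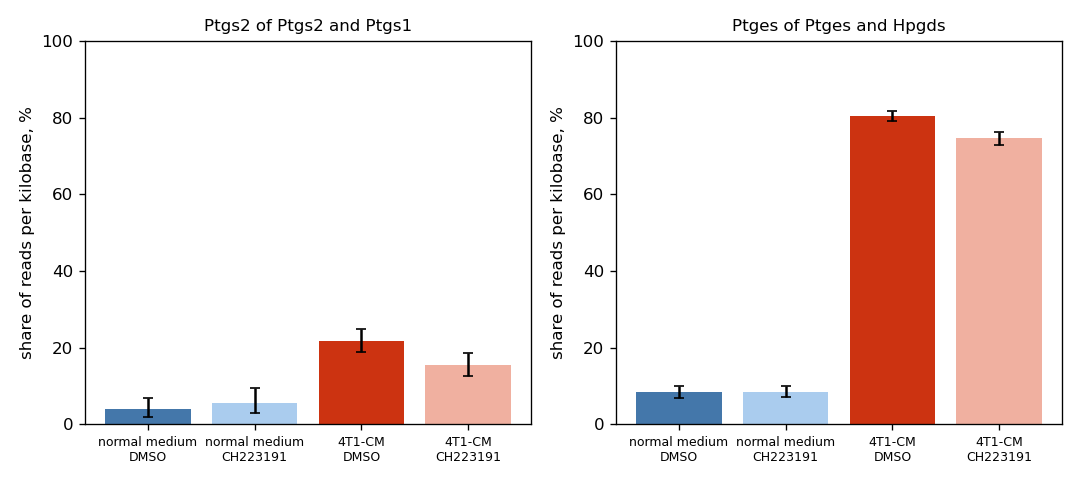
Share of Ptgs2 among the reads per kilobase of Ptgs2 and Ptgs1 (left) and of Ptges among those of Ptges and Hpgds (right), in percent, for the 4 libraries, with bars giving the 95% interval of counting error. The Ptges share is 8.38% and 8.54% in normal medium and 80.5% and 74.7% in 4T1-CM, while the Ptgs2 share stays below 25% in each library.

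In the leukotriene branch, Alox5 (chr6:116410077-116461178, minus strand) encodes 5-lipoxygenase and Alox5ap (chr5:149264767-149288153, plus strand) the membrane protein that presents arachidonic acid to it. Alox5 had 38, 25, 184 and 98 reads. It was higher in both libraries with 4T1-CM, by 4.37-fold with DMSO (log2 2.13, 95% interval 1.63 to 2.68) and 3.78-fold with CH223191 (1.92, 1.29 to 2.64), with an adjusted p of 0.000126 in the additive edgeR fit. Alox5 is also expressed by neutrophils. Their marker list was higher in 4T1-CM, with Mmp8 the highest and Ly6g, S100a9 and Retnlg at 0, and its part here was not tested. Alox5ap had 1029, 1200, 1108 and 925 reads, or 64.5, 75.5, 63.3 and 56.9 CPM, so that its scaled level in 4T1-CM with DMSO was close to that in normal medium. Its log2 ratio was -0.03 under DMSO (95% interval -0.15 to 0.10) and -0.41 under CH223191 (-0.53 to -0.28), with an adjusted p of 0.242. Per kilobase, Alox5ap was the most abundant of the 10 genes in every library, 78.3 times as abundant as Alox5 in normal medium with DMSO and 17.4 times in 4T1-CM with DMSO. The antisense gene Gm19719, which overlaps Alox5ap, had at most 7 reads.

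Alox15 (chr11:70344152-70352031, minus strand) encodes the lipoxygenase that is abundant in resident peritoneal macrophages and is also known from eosinophils. It had 0, 4, 0 and 1 reads and was not detectable above the limit of a count of 0 in 3 of the 4 libraries, so no ratio was taken.

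The enzymes that divide leukotriene A4 between its products had different levels. Lta4h (chr10:93453411-93484875, plus strand), the hydrolase that makes leukotriene B4, had 1787, 1759, 1762 and 1710 reads, the narrowest range of the 10 genes in proportion to its level. Its log2 ratio was -0.16 under DMSO (95% interval -0.25 to -0.06) and -0.07 under CH223191 (-0.17 to 0.03), with an adjusted p of 0.512 in the additive edgeR fit. Ltc4s (chr11:50236461-50238616, minus strand), the synthase of leukotriene C4, had 7, 22, 17 and 32 reads, and its libraries with the 2 media overlapped. The log2 ratio was 1.09 under DMSO (95% interval -0.20 to 2.66) and 0.50 under CH223191 (-0.32 to 1.36), both intervals including 0, and the adjusted p was 0.256. Lta4h was 42.4 times as abundant per kilobase as Ltc4s in normal medium with DMSO and 17.2 times in 4T1-CM with DMSO.

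In normal medium with DMSO the order began with Alox5ap at 45.5 CPM per kilobase, Hpgds at 20.2 and Lta4h at 18.4, and Ptges was at 1.85. In 4T1-CM with DMSO it began with Alox5ap at 44.6, Ptges at 25.7 and Lta4h at 16.5, and Hpgds was at 6.24. The same 3 genes led in the library with CH223191 of the same medium. In normal medium with DMSO, the intervals of neighbours overlapped at the lower end only, for Alox5 with Ltc4s, Ltc4s with Ptgs2 and Ptgs2 with Alox15. With CH223191 they overlapped for Ptgs1 with Pla2g4a, Pla2g4a with Ptges, Ptges with Ltc4s, Alox5 with Ptgs2 and Ptgs2 with Alox15. In 4T1-CM they overlapped for Alox5 with Ptgs2 in both libraries and, with CH223191, also for Hpgds with Ptgs1 and for Ltc4s with Alox5. All other neighbours in these orders were apart by more than counting error.

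The second question was how CH223191 differed from DMSO. In normal medium 1 of the 9 genes with a ratio, Ltc4s, was at least 2-fold higher, against 4.84% of genes, and 0 were at least 2-fold lower, against 3.31%. In 4T1-CM 0 were at least 2-fold higher, against 2.75%, and 0 lower, against 2.66%. The comparison in normal medium and the one in 4T1-CM share no library. Of the 9 genes, 0 were past 2-fold the same way in both, against 0.649% of genes higher and 0.481% lower. In the additive edgeR fit 0 of the 9 genes passed an adjusted p of 0.05 for CH223191, with adjusted p from 0.704 to 0.978. At an unadjusted p under 0.05, 3 passed, Pla2g4a, Alox5 and Ltc4s, against 6.42% of genes. DESeq2 called 0 of the 8 to which it gave an adjusted p (all but Ltc4s), against 0.136% of 10258 genes. Over all genes the edgeR fit called 0.0729% higher and 0.00729% lower.

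In 4T1-CM, Ptgs2 and Alox5 had the lowest ratios of CH223191 to DMSO. Ptgs2 had 172 reads with DMSO and 88 with CH223191 there, a log2 ratio of -0.86 (95% interval -1.25 to -0.48), while in normal medium 11 and 12 reads gave 0.12 (-1.18 to 1.45). Alox5 had 184 and 98 reads in 4T1-CM, a log2 ratio of -0.80 (-1.17 to -0.44), and 38 and 25 in normal medium, a log2 ratio of -0.59 (-1.39 to 0.17). In 4T1-CM both differences exceed counting error, and whether they exceed the spread between cultures cannot be told from 1 library each. Their adjusted p for CH223191 in the additive edgeR fit was 0.79 for Ptgs2 and 0.704 for Alox5.

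Ltc4s was higher with CH223191 in both media, with few reads. The 7 and 22 reads in normal medium gave a log2 ratio of 1.59 (95% interval 0.38 to 3.13), and the 17 and 32 in 4T1-CM gave 0.998 (0.13 to 1.96), just under 2-fold. In normal medium, 13.1% of genes with a mean under 5 CPM were at least 2-fold higher with CH223191 and 10.6% lower, against 1.39% and 0.269% at or above 5 CPM. In 4T1-CM these shares were 8.72% and 8.64%, against 0.248% and 0.155%. The antisense gene Gm26542, which overlaps Ltc4s, had at most 5 reads, and the strand used in counting is not stated. The adjusted p for CH223191 was 0.762 in the additive edgeR fit.

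The other genes differed by less. Pla2g4a was lower with CH223191 by a log2 ratio of -0.29 in normal medium (95% interval -0.56 to -0.03) and -0.37 in 4T1-CM (-0.57 to -0.18). Ptgs1 was lower by -0.41 (-0.71 to -0.12) and -0.26 (-0.45 to -0.07) in the same order. Hpgds was higher by 0.21 (0.13 to 0.30) and 0.27 (0.12 to 0.42). Each of these 3 genes kept its direction in both media, and each difference was under 1.4-fold. Ptges was at 0.24 in normal medium (-0.12 to 0.61) and -0.21 in 4T1-CM (-0.31 to -0.11). Lta4h was at -0.02 (-0.12 to 0.08) and 0.06 (-0.03 to 0.16), with both intervals including 0.

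**Figure D4:**
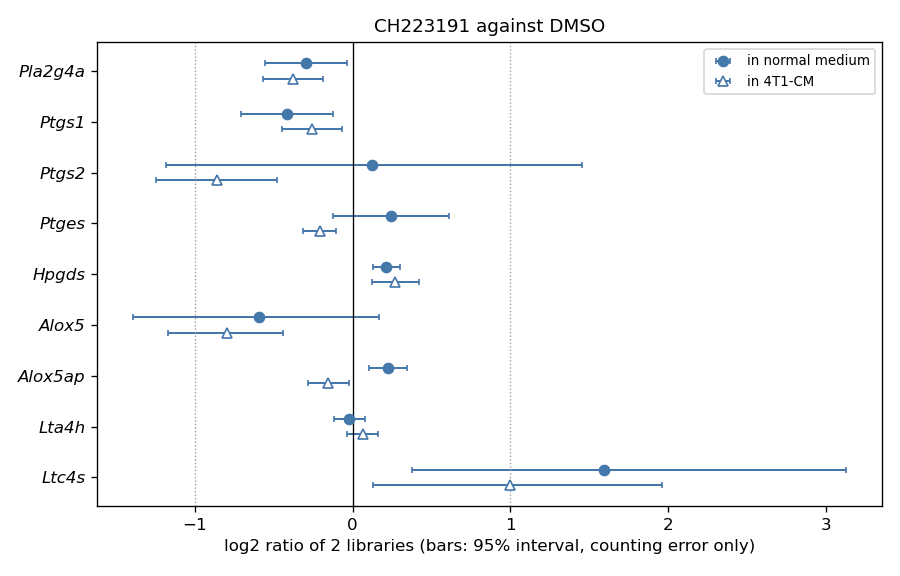
Log2 ratio of CH223191 to DMSO for the 9 genes with enough reads (horizontal axis), filled points in normal medium and open triangles in 4T1-CM, bars giving the 95% interval of counting error and dotted lines 2-fold. Ptgs2 (-0.86) and Alox5 (-0.80) lie lowest in 4T1-CM, and Ltc4s lies highest in both media.

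The response to 4T1-CM with CH223191 was also set against that with DMSO. The difference of the log2 ratios, with the exact conditional 95% interval of the reads, was -0.45 (-0.84 to -0.07) for Ptges and -0.38 (-0.55 to -0.20) for Alox5ap. These intervals exclude 0 as far as counting error goes, and the difference was not tested across cultures. The additive fits take the responses of a gene with DMSO and with CH223191 to be equal. For Ptgs2 it was -0.98 (-2.37 to 0.39), a wide interval that includes 0, with 11 and 12 reads in normal medium. For Alox5 it was -0.21 (-1.06 to 0.68), for Hpgds 0.06 (-0.11 to 0.23) and for Ptgs1 0.16 (-0.19 to 0.51).

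The 59 other genes of the pathway, listed by role, were counted in the same way. Of these, 38 passed the filter, and the highest count among the 21 that did not was 9 reads. A ratio could be taken for 37 in both comparisons of 4T1-CM. Of these 37, 8 were at least 2-fold higher with DMSO and 11 with CH223191, against 12.2% and 12% of genes, and 2 and 5 were at least 2-fold lower, against 6.11% and 7.86%. In both comparisons 8 were higher, Pla2g7, Acsl1, Lpcat2, Slco2a1, Ptger4, Mgst2, Ltb4r1 and Cysltr1, against 8.18% of genes, and 2 were lower, Mgll and Anxa1, against 3.38%. With CH223191, Slco2a1, Cysltr1 and Ptgir lay at the threshold, at log2 ratios of 1.005, 1.006 and 1.007. The count of 11 was 8 under DESeq2 size factors. In the additive edgeR fit 14 of the 38 were higher and 8 lower at an adjusted p under 0.05, against 16.4% and 16.2% of genes, and DESeq2 called 17 in either direction, against 18.5%. With CH223191, 0 were past 2-fold in both media, against 0.649% of genes higher and 0.481% lower, and 0 passed in the edgeR fit. At an unadjusted p under 0.05, 2 passed there, against 6.42% of genes, and DESeq2 called 0 at an adjusted p under 0.05, against 0.136%.

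Among the genes that handle phospholipids and arachidonic acid, Pla2g7, the phospholipase that inactivates platelet-activating factor, had 3306, 2986, 15995 and 14421 reads. Acsl1, an acyl-CoA synthetase, had 755, 781, 3357 and 2655 reads. Lpcat2, which makes platelet-activating factor, had 199, 155, 906 and 753 reads. These 3 genes were between 3.33-fold and 4.74-fold higher in 4T1-CM. Mgll, the lipase that frees arachidonic acid from the endocannabinoid 2-AG, had 2148, 2529, 357 and 386 reads, a log2 ratio of -2.72 under DMSO (95% interval -2.89 to -2.56) and -2.74 under CH223191 (-2.90 to -2.59). Anxa1, known as an inhibitor of phospholipase A2 activity, had 33712, 30689, 12597 and 10810 reads, and was 2.94-fold lower with DMSO and 2.90-fold lower with CH223191. In each of these 5 genes the libraries of the 2 media did not overlap.

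Of the prostanoid receptors, 4 of 9 had a mean of at least 1 CPM. Ptger4, a receptor of prostaglandin E2 that raises cyclic AMP, had 176, 169, 575 and 573 reads and was 2.97-fold higher with DMSO (log2 1.57, 95% interval 1.33 to 1.82) and 3.31-fold higher with CH223191 (1.73, 1.48 to 1.99). Ptger2, another receptor of this kind, had 86, 104, 187 and 197 reads. Ptgir, the receptor of prostacyclin, had 428, 430, 835 and 883 reads. In each of these 3 receptors both libraries with 4T1-CM were above both with normal medium, and the fold for Ptger2 and Ptgir lay between 1.78 and 2.01. Ptger1 had 20, 15, 18 and 32 reads, without separation by medium. Ptgdr, Ptgfr and Tbxa2r had 0 reads in every library, and Ptgdr2 and Ptger3 had at most 4.

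Of the leukotriene and lipoxin receptors, 4 of 6 had a mean of at least 1 CPM. Ltb4r1, the high-affinity receptor of leukotriene B4, had 8, 6, 44 and 46 reads, a log2 ratio of 2.26 under DMSO (95% interval 1.22 to 3.62) and 2.81 under CH223191 (1.68 to 4.43). Cysltr1, a receptor of cysteinyl leukotrienes, had 130, 125, 299 and 257 reads and was 2.09-fold and 2.01-fold higher. Fpr2, which also binds formyl peptides, had 2, 0, 2588 and 1987 reads. Fpr2 has no fold, since normal medium had 3 reads or fewer. The neutrophil marker list was higher in 4T1-CM too, with some of its genes at 0 as given above, and its part was not tested. These 3 receptors were higher in both libraries with 4T1-CM than in either with normal medium. Cysltr2, another receptor of cysteinyl leukotrienes, had 17, 23, 37 and 32 reads and was higher in both as well, by log2 ratios of 0.97 (0.12 to 1.91) and 0.44 (-0.37 to 1.28). Mgst2, an enzyme that can make leukotriene C4 outside the hematopoietic lineage, had 57, 54, 191 and 198 reads and was 3.03-fold and 3.57-fold higher. Slco2a1, a prostaglandin transporter, had 7, 10, 17 and 21 reads, and both its intervals included 0.

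**Figure D5:**
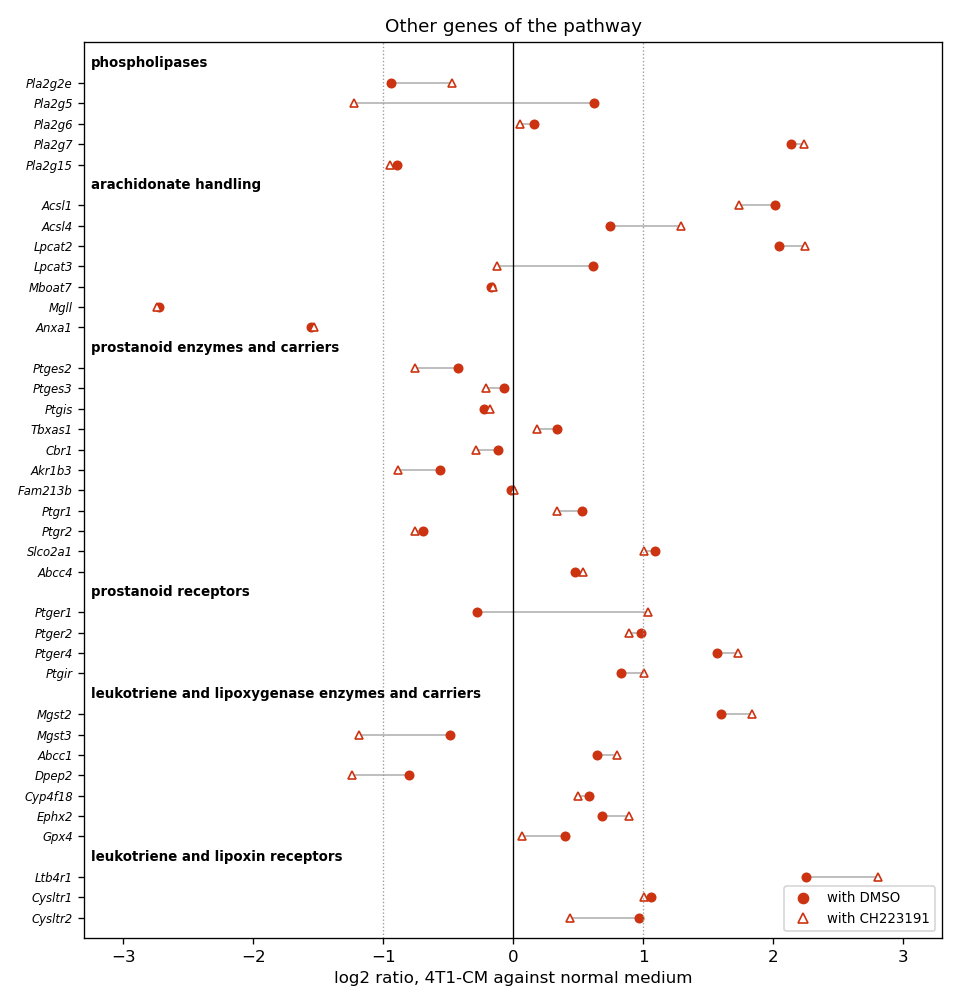
Log2 ratio of 4T1-CM to normal medium (horizontal axis) for the 37 other genes of the pathway with enough reads in both comparisons, grouped by role, filled points with DMSO and open triangles with CH223191, with dotted lines at 2-fold. Ptger4, Ltb4r1, Pla2g7, Lpcat2 and Mgst2 lie to the right of 2-fold in both comparisons, and Mgll and Anxa1 to the left.

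The genes most like Ptges and Hpgds over the 4 libraries were sought among the other 8322 genes that averaged 10 CPM or more, by the root mean square difference of centred log2 CPM. For Ptges they were Mmp14, a membrane metalloproteinase, at 0.13, Egln3, a prolyl hydroxylase, at 0.15, and Pilra, an inhibitory receptor, at 0.16. For Hpgds they were Polr2l at 0.03, Cracr2b at 0.04 and Nab2 at 0.05. Over 4 libraries that fall mainly into 2 media, this likeness describes the size of the difference between media.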

How the data were processed

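RNA was sequenced from 4 cultures of mouse peritoneal macrophages, 1 per condition. The deposited values are raw read counts, not normalized by the authors, for 54532 genes. Alignment used HISAT2 2.0.5 per the submitters' processing notes, which also name DESeq2. The counter, the genome build and the use of strand are not given for these libraries in the sources used here. For all 10 genes the coordinates match GENCODE M21 (GRCm38). Library totals ranged from 15535405 to 17557127 counts.

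Where entries share a symbol, the one with the most reads over the 4 libraries kept it and the others (103) went by identifier. The 13715 genes that reached 10 reads in any library were kept. Libraries were scaled with TMM in edgeR 4.0.16 (R 4.3.3), and log2 ratios used a prior count of 0.5. No fold was given for a listed gene where a library had 3 reads or fewer. The shares over all genes kept applied no such limit. Counting intervals used scipy 1.17.1. All p-values come from the additive quasi-likelihood fit of edgeR or the additive fit of DESeq2 1.42.0, with Benjamini-Hochberg adjustment. For edgeR it ran over the genes kept. For DESeq2 it ran over the genes left by its own filtering, 13183 for 4T1-CM and 10258 for CH223191. The fits and intervals were tested on simulated data. For the fits the simulated spread between libraries was assumed. The spread between cultures is unknown here, so that test does not check the p-values.

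The genes, lists and tests were chosen with earlier results of these data known. The text names the 10 genes, the genes of the wider list past 2-fold the same way in both comparisons, and its receptors averaging 1 CPM or more. For Ptges and Hpgds, the members of at least 10 CPM with the largest mean ratio, it names the 3 genes most alike. Alternatives were other scalings, filters, protein-coding genes only, a larger prior count (5) and the additive fits. Promoters are those of RefSeq for GRCm38.p6. Protein sequences were not used here.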

Additional observations from a re-analysis of the deposited data

Results flagged for a closer look

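Alox5ap was higher with CH223191 than with DMSO in normal medium and lower in 4T1-CM, with counting intervals that exclude 0 in both. The log2 ratio was 0.23 in normal medium (1029 reads with DMSO and 1200 with CH223191) and -0.15 in 4T1-CM (1108 and 925 reads). The direction therefore differed between the media, but with 1 library per condition the difference was not tested across cultures. With 1 library per condition, no group was large enough to look for a library that stands apart.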

How the results depend on the processing

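No paired analysis of replicates was possible because each condition has 1 library. The additive fits, which use both comparisons of a factor at once, stand in the report. Under the 7 alternatives of scaling, filter, prior count and gene type, the 248 recomputed log2 ratios of the 10 genes stayed within their counting intervals, and 79 of the 80 recomputed counts of genes past 2-fold stayed within 1.5 times. The exception was Ltc4s: a filter of 10 reads in all 4 libraries removes it, so the number of genes at least 2-fold higher with CH223191 in normal medium was 0 in place of 1. Taking protein-coding genes alone used the library sizes of the main setting, so it could not change the ratios or counts of the 10 genes. The within-library shares do not depend on the scaling. In the wider list, a prior count of 5 gave 7 genes at least 2-fold higher with 4T1-CM and CH223191 in place of 11, and the filter of 10 reads in all 4 libraries gave 0 in place of 1 lower with CH223191 in 4T1-CM. The count of 11 was 9 with that filter and 8 without a filter. It was also 8 with DESeq2 size factors and with TMM without the 50 most abundant genes. Over all genes, the filter decided the background more than the scaling. Without a filter, the genes past 2-fold in 4T1-CM with DMSO numbered 4635 higher and 2535 lower, and 851 and 499 with 10 reads in all 4 libraries, in place of 1673 and 838. With CH223191 these counts were 4367 and 2995, and 869 and 677, in place of 1648 and 1078. For CH223191 against DMSO, the counts over all alternatives ran from 226 to 2815 higher and 89 to 2260 lower in normal medium, and from 83 to 2555 and 53 to 2688 in 4T1-CM. For 4T1-CM the additive fit of DESeq2 called 1205 genes higher and 1238 lower, that of edgeR 2248 and 2228. The other scalings moved the median log2 ratio of all genes by at most 0.05. Depth limits what can be said of Ptgs2 in normal medium, of Ltc4s and of Alox15, and the number of cultures limits every comparison.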

Other observations

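The other terminal synthases of prostanoids had a narrower range over the libraries than Ptges, and they are named here after their values were seen. Tbxas1, the synthase of thromboxane A2, was at 19.0 CPM per kilobase with DMSO and 25.1 with CH223191 in normal medium, and at 23.9 and 28.5 in 4T1-CM, close to the level of Ptges in 4T1-CM (25.7 and 22.3). Ptges3, the cytosolic synthase of prostaglandin E2 that also serves as a co-chaperone, was at 26.8, 24.4, 25.5 and 21.05 CPM per kilobase in the same order. Ptges2 was at 4.11, 4.65, 3.06 and 2.75, and Ptgis, the prostacyclin synthase, at 2.32, 2.50, 1.98 and 2.21. Ptgds, the other synthase of prostaglandin D2, had at most 1 read in a library, and Hpgd, the dehydrogenase that inactivates prostaglandins, had at most 3. The prostaglandin reductases Ptgr1 and Ptgr2 had log2 ratios of 0.53 and -0.69 for 4T1-CM with DMSO and of 0.33 and -0.75 with CH223191.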
